A study of Mus musculus with 6 samples.

Results

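Txnip, 4 further alpha-arrestin genes (Arrdc1, Arrdc2, Arrdc3 and Arrdc4), the thioredoxin genes Txn1 and Txn2 and the thioredoxin reductase genes Txnrd1 and Txnrd2 were followed in mouse embryonic stem cells that cannot make their own microRNAs. All probe sets of the array whose single annotated gene symbol was one of these 9 genes were taken, which gave 21 of 45101 probe sets, for 9 of the 18193 genes that the annotation names in this way. The cells were of the Dicer -/- line named 27H or 27H10, kept undifferentiated, and were read 24 h after transfection. In 3 samples they had received miRNA mimics of the mmu-miR-290 cluster (miR-290 mimics), and in 3 samples an siRNA against Renilla luciferase (control siRNA), a gene that mouse cells lack. All 6 samples lack Dicer, the enzyme that cuts microRNA precursors, so the control cells are not cells with a normal set of microRNAs. The comparison asks which transcripts differ when this microRNA cluster is returned. Each sample was read on 1 array. Whether replicates were separate cultures is not stated, so the p-values cover the spread of these samples alone, and that spread may be technical.

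Alpha-arrestins are adaptor proteins that bring ubiquitin ligases of the Nedd4 family to membrane proteins and so steer their uptake into the cell. Txnip differs from its relatives in that it binds reduced thioredoxin and blocks it, and it also promotes the removal of glucose transporters from the cell surface. Thioredoxins are small proteins that reduce disulfide bonds in other proteins, and thioredoxin reductases recharge them with electrons from NADPH. Txnip and Arrdc4 are known as genes that glucose switches on through the transcription factors MondoA (Mlxip) and Mlx.

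The labels name the cluster and not the single mimics. The 3p arms of its microRNAs are shown because a microRNA finds its targets mainly through its seed, bases 2 to 8, which is in capitals. RefSeq places these 6 on the plus strand of chromosome 7 between bases 3218674 and 3220837 of GRCm38.p6.
mmu-miR-290a-3p: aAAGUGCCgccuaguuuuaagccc
mmu-miR-291a-3p: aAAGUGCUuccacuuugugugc
mmu-miR-291b-3p: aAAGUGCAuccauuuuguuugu
mmu-miR-293-3p: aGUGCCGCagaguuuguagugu
mmu-miR-294-3p: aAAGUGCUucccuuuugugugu
mmu-miR-295-3p: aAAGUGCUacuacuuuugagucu
The cluster also holds mmu-miR-292a-3p. Of the 6 shown, the seeds of miR-291a-3p, miR-294-3p and miR-295-3p are the same. Those of miR-290a-3p and miR-291b-3p differ from them only in their last base, so 5 of the 6 share bases 2 to 7, and miR-293-3p stands apart with a seed of its own. Target sites of the member transcripts were not analysed here.

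None of the 21 probe sets passed the test over the whole array. The 2 genes that came closest were Txnip, whose brightest probe set was lower with the mimics, and Txn2, which was higher. With limma, 0 of 21 had a Benjamini-Hochberg adjusted p under 0.05, against 1.29% of all 29167 probe sets tested (0.946% lower and 0.343% higher). At an unadjusted p under 0.05 there were 5 of 21 (1 lower, 4 higher), against 20.1% of all probe sets. A second version of limma, in which the prior variance follows the signal level and is estimated robustly (the level-dependent robust prior), called 4 of 21, against 11.3% of all (6.56% lower and 4.73% higher). These 4 were 1 Txnip probe set, lower, and the 3 probe sets of Txn2, higher. The 3 mimic values lay entirely above or below the 3 control values for 7 of the 21 (2 lower, 5 higher), against 29.2% of all (15.5% lower and 13.8% higher). All 21 passed the filter on dim probe sets. Their median log2 difference, mimics minus control, was −0.05, and that of all tested probe sets was −0.01. The plot of all 21 differences shows where the intervals clear 0.

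**Figure D1:**
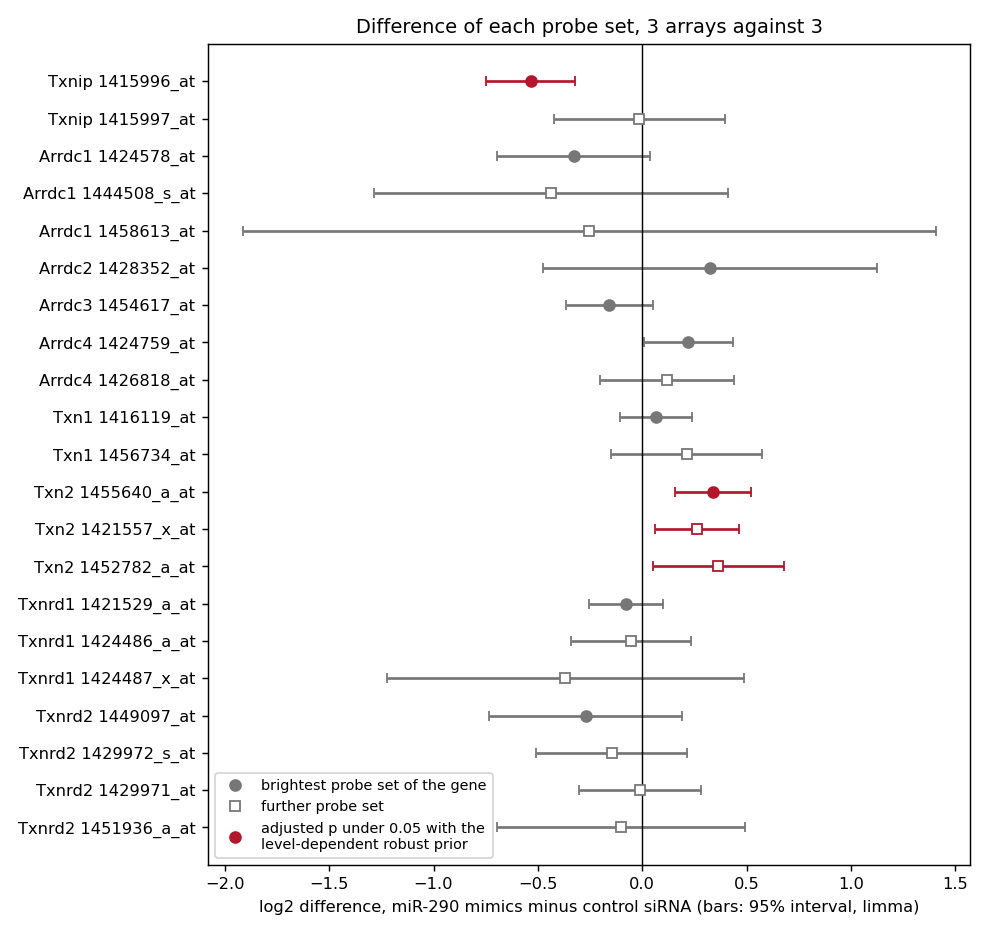
Log2 difference of each of the 21 probe sets, miR-290 mimics minus control siRNA, with its 95% interval from limma (x axis, log2 scale); filled circles are the brightest probe set of a gene, open squares its further ones, and red marks an adjusted p under 0.05 with the level-dependent robust prior. The Txnip probe set at −0.53 and the 3 Txn2 probe sets at 0.26 to 0.36 are the red ones, and the widest intervals belong to dim probe sets of Arrdc1, Arrdc2 and Txnrd1.

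The brightest Txnip probe set (1415996_at) gave intensities of 3636, 3850.03 and 3314 with the mimics, against 5304, 5176 and 5128 with the control siRNA. The groups did not overlap, and the gap between them was wider than the spread within either. The means were 3600.2 ± 269.7 with the mimics and 5203 ± 91.0 with the control siRNA (SD, n = 3 each), which is 1.45-fold lower with the mimics. On the log2 scale the difference was −0.53 ± 0.084 (SE), with a 95% interval of −0.75 to −0.32. Its limma adjusted p was 0.0601, at rank 561 of 29167 by p, just short of the threshold, whereas the level-dependent robust prior gave an adjusted p of 0.000277. The difference itself stayed between −0.58 and −0.48 over 20 alternative settings that read this probe set alone. Only the normalizations, the offset and leaving out an array could move it. The filters, the robust prior and the replicate block leave it at −0.53, and the robust fits without an array repeat the plain ones. Of the 20 settings, 10 gave an adjusted p under 0.05, as the plot of adjusted p-values by setting shows. Among the 10 were the robust prior on all arrays and its fits without each single array, so the 10 are not independent.

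The other Txnip probe set (1415997_at) did not show this difference. It gave 619.98, 797 and 742 with the mimics, against 824, 759 and 604 with the control siRNA. Both groups covered much the same range, and the log2 difference was −0.01 ± 0.16 (SE; limma adjusted p = 0.971), with a 95% interval of −0.42 to 0.40. That interval includes part of the range of the brighter probe set. Within each array the log2 ratio of the brighter to the dimmer probe set was 2.16 to 2.55 with the mimics and 2.69 to 3.09 with the control siRNA, a difference of −0.52. The exact permutation test gave p = 0.1 for it (two-sided, n = 3 each), the smallest that 3 arrays against 3 can give. This comparison, 2 more between member probe sets and the average over a gene's probe sets were chosen after the values were seen. Averaged over both probe sets, Txnip differed by −0.27 ± 0.10 (SE; limma adjusted p = 0.202).

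**Figure D2:**
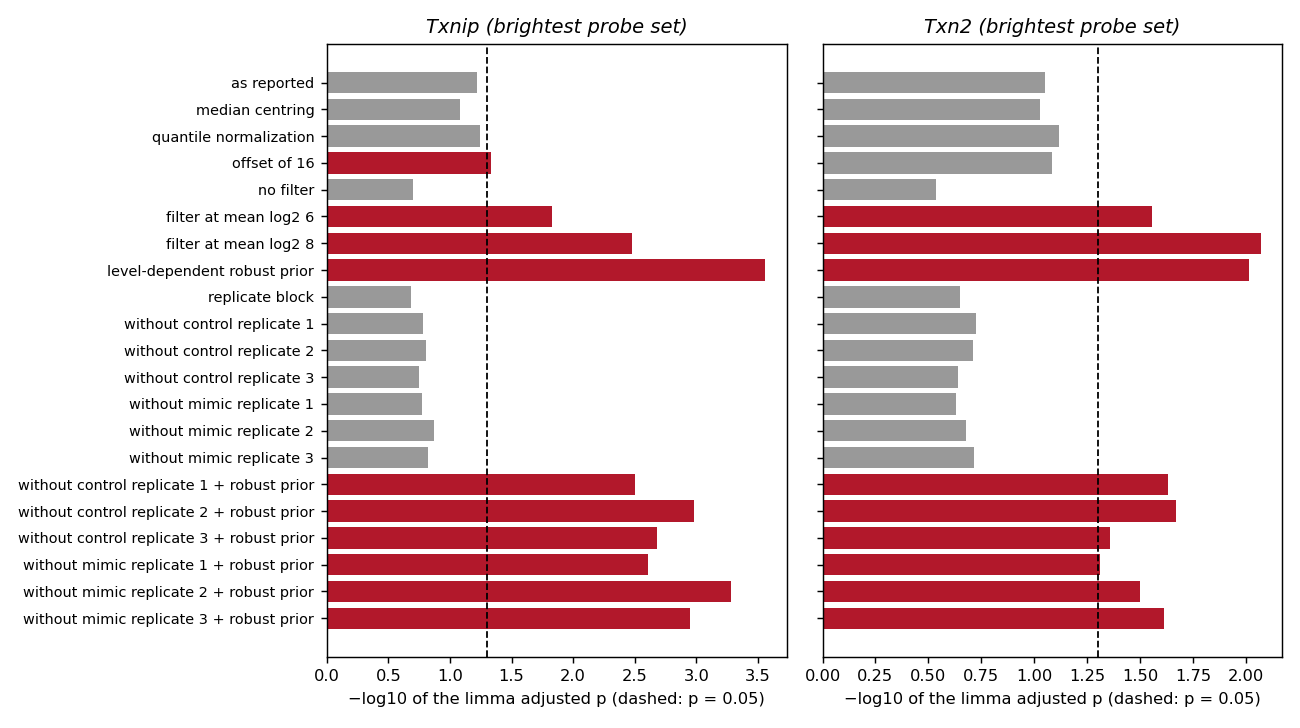
Minus log10 of the limma adjusted p (x axis) for the brightest probe sets of Txnip (left) and Txn2 (right) as reported and under each of 20 alternative settings (rows), where robust prior stands for the level-dependent robust prior; the dashed line is an adjusted p of 0.05 and red bars are past it. Leaving out 1 array puts both genes short of the line with the test as reported and past it with the robust prior.

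Arrdc4 encodes a protein that like Txnip reduces glucose uptake in cultured cells. Its brightest probe set was higher with the mimics, where the brightest Txnip probe set was lower and the other Txnip probe set showed no difference. The brightest Arrdc4 probe set (1424759_at) read 1894, 1956 and 1977 with the mimics, against 1737, 1742 and 1529 with the control siRNA. All 3 mimic values lay above the control values, and the log2 difference was 0.22 ± 0.084 (SE). It did not pass over all probe sets (limma adjusted p = 0.236; 0.0624 with the level-dependent robust prior). The second Arrdc4 probe set (1426818_at) covered 346 to 438 with the mimics and 337 to 391 with the control siRNA, and its difference of 0.12 had a 95% interval of −0.20 to 0.44. The log2 ratio of Txnip to Arrdc4, each on its brightest probe set, was lower by 0.75 with the mimics, at 0.75 to 0.98 per array against 1.57 to 1.75 with the control siRNA. Since the values of both these probe sets already separated the groups, in opposite directions, this ratio had to separate them too, and it is given as a description.

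The promoters of Txnip and Arrdc4 are shown because both genes are known to answer to the same glucose-sensing factors, whose sites are built from a pair of E-box-like elements. RefSeq windows in GRCm38.p6 run from 250 bases before the gene's start to 50 after it, and all 9 genes had one, 13 windows in all. Capitals mark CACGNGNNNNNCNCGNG (a pair of E-box-like elements) in Txnip and CACGTG (an E-box) in Arrdc4, both searched on both strands. The Txnip window is chr3:96557707-96558006, plus strand, and the Arrdc4 window is chr7:68749189-68749488, minus strand.
Txnip promoter: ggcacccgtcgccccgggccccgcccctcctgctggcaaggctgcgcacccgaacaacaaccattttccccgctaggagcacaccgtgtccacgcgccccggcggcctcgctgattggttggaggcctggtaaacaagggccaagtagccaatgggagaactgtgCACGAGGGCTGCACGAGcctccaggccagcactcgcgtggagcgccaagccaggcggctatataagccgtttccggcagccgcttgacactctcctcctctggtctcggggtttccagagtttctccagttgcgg
Arrdc4 promoter: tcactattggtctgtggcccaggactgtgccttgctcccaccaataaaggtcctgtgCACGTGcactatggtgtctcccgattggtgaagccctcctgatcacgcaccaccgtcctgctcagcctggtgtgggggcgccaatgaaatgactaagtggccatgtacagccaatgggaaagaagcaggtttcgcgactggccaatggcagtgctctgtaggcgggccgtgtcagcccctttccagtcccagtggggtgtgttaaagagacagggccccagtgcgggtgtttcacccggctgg
The paired motif was found in 1 of the 13 member windows, that of Txnip, 85 bases before the start, and in 0.365% of all 32851 windows. CACGTG was also in 1 of the 13, that of Arrdc4, 193 bases before the start, and in 7.15% of all. CCAAT, a promoter box searched on both strands, occurred 2 times in the Txnip window and 6 times in that of Arrdc4. It was in 7 of the 13 member windows and in 37.4% of all. The 7 include overlapping windows of Arrdc3 that hold the same CCAAT, at −173 and −211 from their starts. TGACNNNGC, the core of the element that NRF2 binds, was in 2 of the 13 and in 12.4% of all. A match describes these letters only.

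Arrdc3, which in mice acts in the trafficking of the beta-2 adrenergic receptor, had 1 probe set, and it gave 2509, 2446 and 2559.67 with the mimics, against 3026, 2715 and 2654 with the control siRNA. The mimic values were all below the control values, by a small margin. The log2 difference was −0.16 ± 0.082 (SE; limma adjusted p = 0.359), with a 95% interval of −0.37 to 0.05. The log2 ratio of the brightest Txnip probe set to Arrdc3 was lower by 0.38 with the mimics, and its groups did not overlap. The exact permutation test gave p = 0.1 (two-sided, n = 3 each), the smallest it can give. That Txnip probe set alone already separated the groups and the pair was chosen after the values were seen, so the ratio is a description.

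Arrdc1, which works with Nedd4-family ligases and Tsg101 in the budding of small vesicles from the plasma membrane, read 215, 192 and 271 with the mimics on its brightest probe set (1424578_at), against 289, 266 and 287 with the control siRNA. Of the mimic values 2 lay below all controls and 1 fell among them. The log2 difference was −0.33 ± 0.15 (SE; limma adjusted p = 0.292). The 2 dimmer Arrdc1 probe sets gave −0.44 and −0.25, with intervals that reach from −1.28 to 0.41 and from −1.91 to 1.41. Arrdc2 was dim, at 50.03 to 82.9 with the mimics and 34.7 to 67.8 with the control siRNA, and its difference of 0.32 had an interval of −0.48 to 1.12. Neither gene can be placed as higher or lower at this precision.

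**Figure D3:**
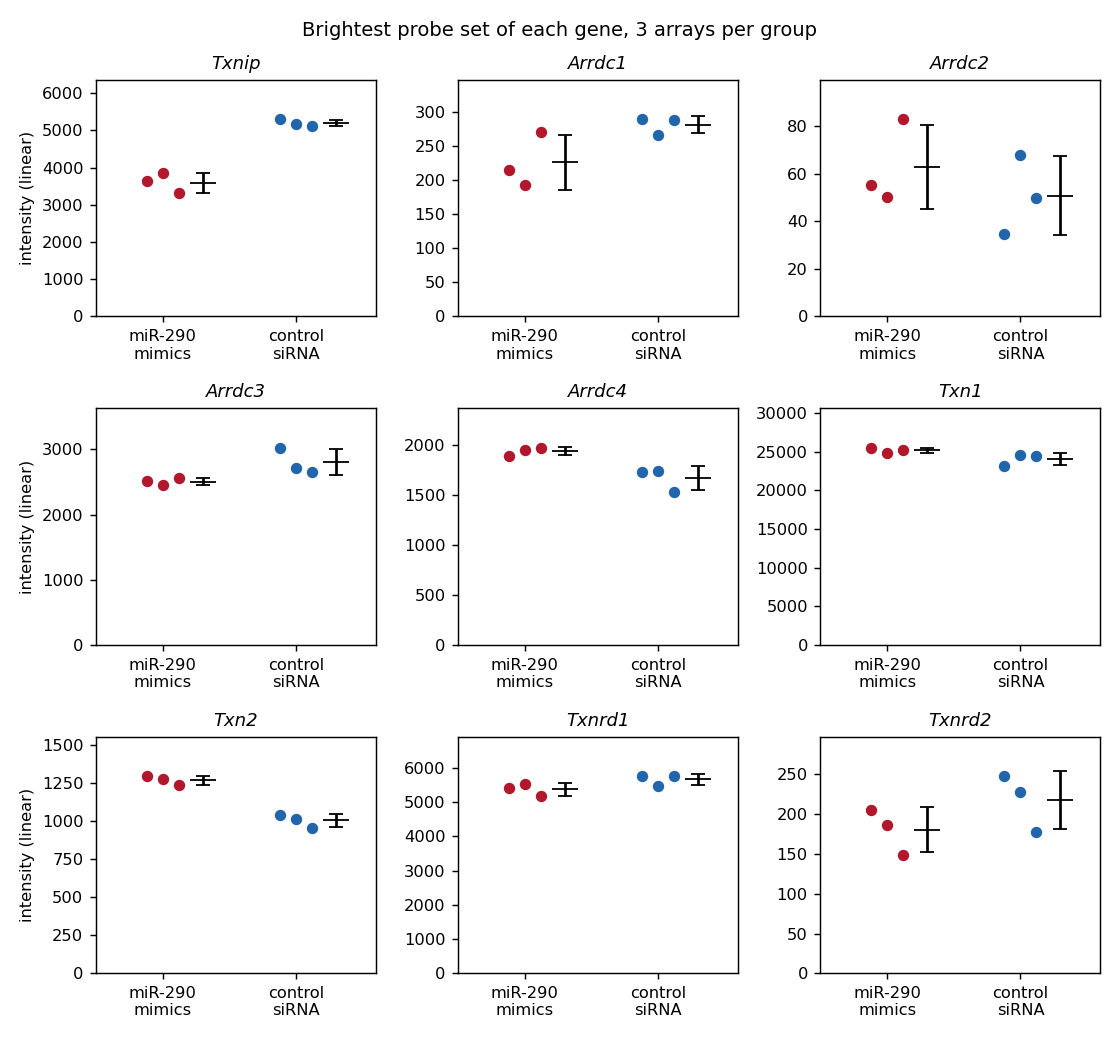
Linear intensity (y axis, from 0, each panel with its own scale) of the brightest probe set of each of the 9 genes on every array; points are single arrays, with miR-290 mimics left and control siRNA right, and bars are the mean ± SD of 3 arrays. Txnip and Arrdc3 are lower and Arrdc4, Txn1 and Txn2 are higher with the mimics without overlap, while Arrdc1, Arrdc2, Txnrd1 and Txnrd2 overlap.

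Txn2, the mitochondrial thioredoxin, was higher with the mimics on all 3 of its probe sets, which read the same gene and are not independent. The brightest (1455640_a_at) gave 1297, 1276 and 1239 with the mimics, against 1044, 1015 and 958 with the control siRNA. It averaged 1271 ± 29.8 with the mimics and 1006 ± 43.9 with the control siRNA (SD, n = 3 each), 1.26-fold higher with the mimics, and the groups lay well apart. The log2 difference was 0.34 ± 0.072 (SE), with a 95% interval of 0.15 to 0.52. The limma adjusted p was 0.0886, and 0.00964 with the level-dependent robust prior. The probe set 1452782_a_at gave 1188, 1169 and 1064 with the mimics, against 875, 1017 and 778 with the control siRNA (log2 difference 0.36). The probe set 1421557_x_at gave 1156, 1263 and 1106 with the mimics, against 986, 988 and 962 with the control siRNA (log2 difference 0.26). Neither passed with the test as reported (limma adjusted p = 0.194 and 0.165), and both did with the level-dependent robust prior (adjusted p = 0.0349 and 0.0442). Leaving out control replicate 1, control replicate 3, mimic replicate 1 or mimic replicate 2 took both of these calls away (adjusted p 0.1 to 0.148), and leaving out control replicate 2 took that of 1421557_x_at (0.0763), whereas the brightest probe set held without any single array (at most 0.0488). The mean over the 3 probe sets differed by 0.32 ± 0.079 (SE; limma adjusted p = 0.0976). The suffix x marks a probe set that the manufacturer designed with possible cross-matches.

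Txn1, the thioredoxin of cytosol and nucleus and the partner that Txnip binds, differed little. Its brightest probe set (1416119_at) gave 25547, 24848 and 25193 with the mimics, against 23163, 24554 and 24495 with the control siRNA. The groups did not overlap, but the log2 difference was only 0.07 ± 0.068 (SE; limma adjusted p = 0.631), and its direction turned with quantile normalization (−0.02). The 95% interval ran from −0.11 to 0.24. A dim second Txn1 probe set gave 0.21 (limma adjusted p = 0.464).

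Txnrd1, the selenoprotein that reduces thioredoxin in the cytosol, gave 5414, 5518 and 5160.47 with the mimics, against 5747, 5476 and 5753 with the control siRNA on its brightest probe set (1421529_a_at). The groups overlapped, and the log2 difference of −0.08 had a 95% interval of −0.26 to 0.10 (limma adjusted p = 0.589). Its 2 dimmer probe sets gave −0.05 and −0.37. Txnrd2, the mitochondrial reductase, gave 205, 187 and 149 with the mimics, against 247, 227 and 178 with the control siRNA on its brightest probe set (1449097_at), again with overlap (log2 difference −0.27, limma adjusted p = 0.467). The other 3 Txnrd2 probe sets, at 79.2 to 150.2 with the mimics and 87.03 to 161 with the control siRNA, gave differences of −0.15 to −0.01. Across the 7 probe sets of both reductases the limma adjusted p lay between 0.467 and 0.971.

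The genes around the thioredoxins and alpha-arrestins were read in 5 lists that hold no member, each gene on its brightest probe set. Of all 13815 genes tested, 1.38% were called lower and 0.456% higher, and their median log2 difference was −0.01. The plot of the pathway lists shows every measured gene.

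Among clients and partners of thioredoxin, 1 of 12 measured genes fell and 0 rose. The gene that fell was Map3k5, which encodes the kinase ASK1, held inactive by reduced thioredoxin. It gave 338, 369.66 and 398 with the mimics, against 732, 748 and 735 with the control siRNA. The groups were far apart, and the fall was 2.01-fold (log2 difference −1.01 ± 0.087 SE, limma adjusted p = 0.0287). A dim second probe set gave −0.83 (limma adjusted p = 0.441). The fall kept its size when any single array was left out (−1.06 to −0.94), but with 5 arrays the adjusted p was 0.101 to 0.14 and the call was lost; with the level-dependent robust prior it was at most 0.00119. The brightest genes of the list by the naming rule, the peroxiredoxin gene Prdx2 and the ribonucleotide reductase gene Rrm2, gave 0.01 and 0.20, short of the threshold (limma adjusted p = 0.97 and 0.186); the sign of Prdx2 turned with quantile normalization (−0.05). The list's median was −0.03. The level-dependent robust prior called 3 lower, Map3k5, Srxn1 and Rrm2b, and 1 higher, Rrm2, against 9.43% and 6.2% of all genes. Rrm2b gave a log2 difference of −0.62 (limma adjusted p = 0.0758). Its other probe sets went both ways, at −0.74 (limma adjusted p = 0.0639) and, for dim ones, 0.56 and 0.14. Srxn1, the sulfiredoxin that repairs over-oxidised peroxiredoxins, averaged 338 ± 31.8 with the mimics and 502 ± 39.9 with the control siRNA (SD, n = 3 each; log2 difference −0.57, limma adjusted p = 0.0769).

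Of 19 measured thioredoxin-related, glutaredoxin and disulfide isomerase genes, 0 passed in limma. At an unadjusted p under 0.05 there were 1 lower and 4 higher, against 24.5% of all genes in either direction, and likewise 1 lower and 4 higher with the level-dependent robust prior (9.43% and 6.2% of all genes). The 4 higher genes were Txnl4a, Txndc17, Glrx5 and Pdia3. Their other probe sets did not all go the same way. They gave 0.64 and −0.25 for Txnl4a, 0.15 to 0.35 for Txndc17 and −0.06 for Pdia3, and Glrx5 had only 1 probe set. The 1 lower gene was Txnrd3, the third thioredoxin reductase, at 773 ± 55.1 with the mimics and 1045 ± 42.7 with the control siRNA (SD, n = 3 each; log2 difference −0.44, limma adjusted p = 0.0779). The brightest genes, Txnl1 and Txndc17, gave 0.09 and 0.32 (limma adjusted p = 0.563 and 0.0955). The median of the list was 0.02.

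**Figure D4:**
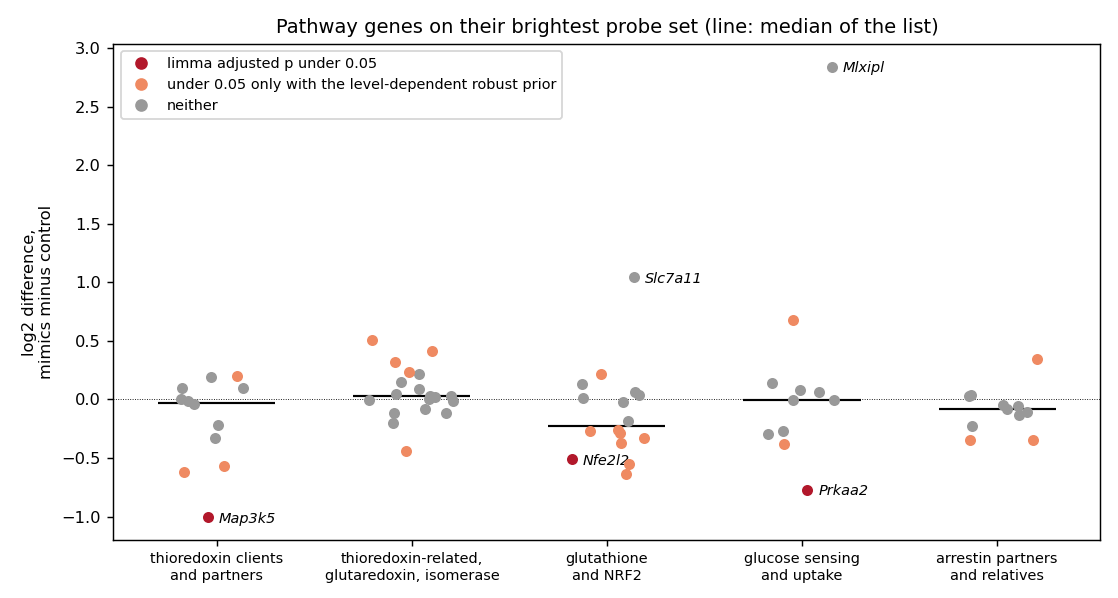
Log2 difference, miR-290 mimics minus control siRNA (y axis), of every measured gene of the 5 pathway lists (x axis) on its brightest probe set; dark red points passed limma over all probe sets, orange ones passed only with the level-dependent robust prior, and lines are the list medians. Map3k5, Nfe2l2 and Prkaa2 are the 3 dark red points, all below 0; the labelled grey points Mlxipl and Slc7a11 are dim.

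Of 16 measured glutathione and NRF2 genes, 1 fell and 0 rose. The gene that fell was Nfe2l2, which encodes NRF2, the transcription factor that drives antioxidant genes including Txnrd1. It gave 2093, 2151 and 2172 with the mimics, against 3093, 2992 and 3072 with the control siRNA. The values within each group were close together, and the fall was 1.43-fold (log2 difference −0.51 ± 0.066 SE, limma adjusted p = 0.0448). The call was lost with median centring (adjusted p = 0.0614) and without any 1 of the 6 arrays (adjusted p 0.136 to 0.155), and it held with the level-dependent robust prior (0.000179). The brightest genes, the glutathione peroxidase genes Gpx4 and Gpx1, gave 0.06 and 0.01 (limma adjusted p = 0.664 and 0.964), and both turned sign with quantile normalization. The list's median was −0.23. The level-dependent robust prior called 8 lower and 1 higher, Taldo1, against 9.43% and 6.2% of all genes. Leaving out any 1 of the 6 arrays with that prior reduced the lower calls to between 3 and 5, and without mimic replicate 1 the higher call was lost. Among the 8 were Gsr, the glutathione reductase (1067 ± 91.5 with the mimics and 1662 ± 196 with the control siRNA, SD, n = 3 each; log2 difference −0.64, limma adjusted p = 0.0776), and Keap1, the adaptor that marks NRF2 for degradation (log2 difference −0.37, limma adjusted p = 0.16; with the robust prior 0.0484, and up to 0.153 when 1 array was left out). A Keap1 probe set of lower signal gave −0.19. Me1, a malic enzyme that makes NADPH, was another of the 8. In the test as reported its brightest probe set did not pass (log2 difference −0.55, limma adjusted p = 0.134), and its other probe set did.

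Of 11 measured genes of glucose sensing and uptake, 1 fell and 0 rose. Prkaa2, a catalytic subunit of the energy sensor AMPK, which in mammalian cells marks Txnip protein for degradation, gave 218, 240.03 and 190.13 with the mimics, against 364, 359 and 378 with the control siRNA (log2 difference −0.77 ± 0.11 SE, limma adjusted p = 0.0497). The groups were well separated, but the call rests on the threshold: it was lost with median centring (0.0649), with quantile normalization (0.0594) and without any 1 array (0.13 to 0.163), and a second probe set gave −0.15 (limma adjusted p = 0.666). The glucose transporter genes Slc2a3 and Slc2a1 gave 0.14 and 0.08 (limma adjusted p = 0.355 and 0.542). Mlxip, which encodes MondoA, read 391 ± 38.4 with the mimics and 480.0 ± 17.4 with the control siRNA (SD, n = 3 each; log2 difference −0.30, limma adjusted p = 0.185). Ddit4, a stress-induced inhibitor of mTORC1, was at 952 ± 198 with the mimics and 589 ± 66.5 with the control siRNA (log2 difference 0.68, limma adjusted p = 0.127). Under the robust prior the calls were Prkaa2 and the hexokinase gene Hk1 lower and Ddit4 higher, against 9.43% and 6.2% of all genes. Hk1 gave a log2 difference of −0.38 (limma adjusted p = 0.155), and its other probe set gave −0.15. Lower calls fell to 1 when control replicate 1 or 3 or mimic replicate 1 or 3 was left out, and higher calls came to 2 without control replicate 2 or 3. The list's median was −0.01.

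Of 11 measured partners and relatives of the alpha-arrestins, 0 passed in limma, with 2 lower and 1 higher at an unadjusted p under 0.05, against 24.5% of all genes in either direction. The brightest, the ubiquitin ligase gene Nedd4 and the budding factor gene Tsg101, gave −0.09 and −0.11 (limma adjusted p = 0.662 and 0.643). The level-dependent robust prior called the ligase genes Itch and Smurf2 lower (−0.35 and −0.34) and the beta-arrestin gene Arrb2 higher (0.35), against 9.43% and 6.2% of all genes. Their limma adjusted p-values in the test as reported were 0.16, 0.0964 and 0.111. Further Smurf2 probe sets gave −0.08 (714 with the mimics, 761 with the control siRNA, limma adjusted p = 0.737) and −0.35 (limma adjusted p = 0.389). Dim Itch probe sets gave 0.19 and 0.01, and another Arrb2 probe set gave 0.64 (limma adjusted p = 0.0786). When 1 array was left out, the robust prior's adjusted p reached 0.169 for Itch and 0.0747 for Arrb2, and at most 0.0349 for Smurf2. Lower calls numbered 2 without mimic replicate 2 and 1 without any other array, and the higher call held only without control replicate 2 or mimic replicate 3. The list's median was −0.09.

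The 3 genes whose pattern over the 6 arrays was most like that of the brightest Txnip probe set were Sohlh2, Afg1l and Dyrk2, out of 7805 genes with a mean log2 of at least 8. Their root mean square distance from Txnip, in log2 deviations from each gene's own mean, was 0.0298, 0.0358 and 0.0405. Sohlh2 read 1338, 1429 and 1229.5 with the mimics, against 1860 to 1910.25 with the control siRNA, so that mimic replicate 2 was the highest and replicate 3 the lowest of the mimic arrays, as for Txnip. The choice by likeness to Txnip on these arrays fixes their direction and much of their size, so their log2 differences of −0.51, −0.49 and −0.58 only describe them.

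The arrays were close in their general properties. The median intensity lay between 44.1 and 44.8 with the mimics and between 41.7 and 44.9 with the control siRNA. The share of probe sets under an intensity of 16 was 28.5% to 29.0% with the mimics and 29.3% to 30.1% with the control siRNA, without overlap. The 5 markers of embryonic stem cells read at least 10219 on every array. Of 6 fibroblast markers, 4 were below the filter, the collagen genes Col1a1, Col1a2 and Col3a1 among them, and the summed level was 236 to 296 with the mimics and 289 to 318 with the control siRNA. Of the other 2, Dcn was dim and gave a log2 difference of −0.90 (limma adjusted p = 0.105), and the brighter Thy1 gave 0.10 (limma adjusted p = 0.708). Neither passed. Of 7 markers of differentiated lineages, 5 were measured and 0 passed. Pax6 read 619 to 667 with the mimics and 562 to 626 with the control siRNA (log2 difference 0.08, limma adjusted p = 0.613). Gata6 was dim, at 27.2 to 65.2 with the mimics and 6.58 to 31.3 with the control siRNA (log2 difference 1.57, limma adjusted p = 0.267). The part of fibroblasts or differentiated cells in the differences above was not tested. In bulk samples fewer cells of a type and less RNA per cell cannot be told apart.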

How the data were processed

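The authors deposited 1 intensity per probe set and array, on a linear scale. GCRMA is named in the submitters' processing notes, while these intensities average 500.0 on every array once the lowest and highest 2% are set aside; the step that scaled them is not given in the sources used here. Dim values may be background, and no detection calls were used. Intensities were log2-transformed with no offset. Control probe sets (64) and 15870 probe sets with a mean log2 under 4 were left out. The 3 mimic and 3 control arrays were compared with limma 3.58.1 in R 4.3.3 (eBayes with 1 prior variance for all probe sets, two-sided, no covariates), adjusted by the Benjamini-Hochberg method over 29167 probe sets, with 0.05 as the threshold; the test was first tested on simulated data. The number of arrays limits the precision.

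Genes were named from the platform annotation: 34958 probe sets had 1 symbol, 932 several, and 9211 were unlisted. All 9 members matched an annotation of GRCm38.p6 by gene identifier. For pathway genes the brightest probe set stood for the gene. The rule named every member probe set, up to 3 genes past the threshold per list (where fewer than 2 passed, also the 2 brightest), and the 3 genes most like Txnip; Srxn1, Rrm2b, Txnrd3, Gsr, Keap1, Mlxip, Ddit4, Arrb2, Itch, Smurf2, Txnl4a, Glrx5, Pdia3, Taldo1, Hk1, Me1, Dcn, Thy1 and the grey points of the pathway plot were named after their values were seen. Pax6 and Gata6 were also named after their values were seen. Members and lists were chosen with earlier results of these data known. Alternatives were median centring, quantile normalization, an offset of 16, other filters, the level-dependent robust prior, a replicate block, averaging the probe sets of each gene, and leaving out each array.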

Additional observations from a re-analysis of the deposited data

How the results depend on the processing

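Over all probe sets, 276 were called lower and 100 higher. Median centring gave 103 and 50, quantile normalization 218 and 105, an offset of 16 gave 442 and 186, and no filter 0 and 0. A filter at a mean log2 of 6 gave 1522 and 851, one at 8 gave 1800 and 1200, and the level-dependent robust prior 1914 and 1379. Without 1 array there were 0 lower and 0 to 1 higher, and with that prior 1172 to 1586 lower and 713 to 1234 higher. The replicate block gave 0 and 0, with 0 member calls. Deviations of same-numbered arrays correlated at −0.00612 to 0.0242, and those of the other pairs at −0.0257 to 0.0126. These values cover all tested probe sets, dim ones included, and cannot tell whether same-numbered arrays shared a culture or a day.

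Of the 21 member probe sets, 1 was called lower with the offset of 16, beside 442 lower and 186 higher of all 29167. With the filter at 6, 18 were tested and 1 was lower and 1 higher, beside 1522 and 851 of all 19503. The filter at 8 left 10, with 1 lower and 3 higher, beside 1800 and 1200 of all 12869. The robust prior gave 1 lower and 3 higher of 21, beside 1914 and 1379 of all 29167. Without 1 array there were 0 calls, or with the robust prior 1 lower and 1 to 3 higher of 21. The brightest Txnip probe set had an adjusted p of 0.0469 with the offset, 0.0149 and 0.00333 with the filters at 6 and 8, and 0.208 with the replicate block. Without 1 array it was 0.136 to 0.177, or 0.000521 to 0.00314 with the robust prior.

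In the lists, calls lower and higher are given in that order for filters at 6 and 8 and for the robust prior. At 6 and 8 the filters left 12 and 11 clients and partners and 18 and 15 related genes. They left 15 and 14 glutathione and NRF2 genes, 9 and 9 glucose genes, and 10 and 8 arrestin partners. Calls over all probe sets also rose, to 1522 and 851 of 19503 and to 1800 and 1200 of 12869. With the robust prior 9.43% of all genes were called lower and 6.2% higher. Clients and partners had 3 and 0, 4 and 1, and 3 and 1. The related genes had 1 and 2, 1 and 4, and 1 and 4. Glutathione and NRF2 genes had 4 and 0, 8 and 1, and 8 and 1. Glucose genes had 1 and 1, 3 and 1, and 2 and 1. Arrestin partners had 1 and 1, 2 and 1, and 2 and 1. No filter, the replicate block and leaving out 1 array each left 0 calls in every list. Median centring left 0 in the glutathione and glucose lists, quantile normalization 0 in the glucose list, and averaging the probe sets of each gene 0 in the client and glucose lists. Leaving out 1 array with the robust prior gave, lower and higher, 3 to 4 and 1 for clients, 1 and 3 to 4 for related genes, 3 to 5 and 0 to 1 for glutathione and NRF2 genes, 1 to 2 and 1 to 2 for glucose genes, and 1 to 2 and 0 to 1 for arrestin partners. Over all probe sets the same fits gave 1172 to 1586 lower and 713 to 1234 higher.

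The direction of some small log2 differences turned. The dimmer Txnip probe set gave 0.033 with median centring, 0.030 with quantile normalization and −0.14 to 0.090 without 1 array. Without 1 array the dimmest Arrdc1 probe set gave −0.79 to 0.16, Txnrd1 1424486_a_at −0.13 to 0.012, Txnrd2 1451936_a_at −0.32 to 0.048 and Txnrd2 1429971_at −0.061 to 0.081. The last gave 0.037 with median centring and 0.035 with quantile normalization. With quantile normalization the brightest probe set of Txn1 gave −0.020, Prdx2 −0.055, Gpx4 −0.011 and Gpx1 −0.078. Without 1 array Prdx2 gave −0.015 to 0.030 and Gpx1 −0.017 to 0.045. In all, 25 of the member values reversed, 26 gained a call and 355 kept sign and side. These counts are not of independent values. The robust fits without 1 array repeat the log2 differences of the plain ones, reversals included. The filters, the robust prior on all arrays and the replicate block cannot turn a sign. The cause of the reversals was not tested. Dim probe sets and 3 arrays a group limit what could be detected.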
